A study of Mus musculus with 5 samples.

Results

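The subunits of voltage-gated ion channels and of the channel families named with them were followed in the developing mouse ventral forebrain with and without the homeodomain transcription factors Dlx1 and Dlx2. The genes were taken by symbol: all potassium channel genes (Kcn) except the Kcnd pores, the Kcnip proteins and Kcns2, the sodium channel genes (Scn followed by a digit), the calcium channel genes (Cacna, Cacnb and Cacng) and the Hcn genes. Membership went by symbol alone, and the brightest probe set by mean level stood for each gene. The rule found 113 of the 18193 genes with a singly named probe set, and 48 of the 113 were bright enough to test, among 11063 such genes in all. The group is wider than its name. It takes in inward rectifier (Kcnj) and tandem-pore leak (Kcnk) potassium channels, calcium-activated channels, auxiliary subunits, the Cacng genes, several of which encode AMPA receptor auxiliary proteins, and 3 noncoding RNAs (Kcnmb4os1, Kcnmb4os2 and Kcnq1ot1).

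The RNA came from the rostral medial ganglionic eminence (MGE), the ventral forebrain zone where many cortical interneurons are born, at stage E15.5 of mouse gestation. The 5 arrays fell into 4 groups: ventricular and subventricular zone tissue of Dlx1/2 mutants (2 arrays), the same tissue of wild-type (WT) embryos (1 array), primary neuronal cultures made from these zones of mutants (1 array) and of WT embryos (1 array). The labels name no Dlx allele, strain, days in culture or pooling of embryos, nor whether separate embryos lie behind the pair of mutant tissue arrays, so p-values rest on a spread that may be technical. All levels below are quantile-normalized log2 intensities, differences are on the log2 scale, each ± the standard error (SE) that limma gave, and adjusted p-values (Benjamini-Hochberg over all 11063 genes) below 0.05 counted as past the threshold. Values of different probe sets cannot be set against each other, and in RNA from mixed cells fewer cells of a type and less RNA per cell cannot be told apart.

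Voltage-gated sodium channels open on depolarization and carry the rising phase of the action potential, while potassium channels repolarize the membrane and set its resting level. Voltage-gated calcium channels turn depolarization into calcium entry, which drives transmitter release and gene transcription, and HCN channels open on hyperpolarization and help set rhythm. Most of these channels are complexes of a pore subunit with auxiliary subunits. Interneurons that leave the MGE acquire their firing properties late, when Kv3 channels (Kcnc genes) and others appear in fast-spiking cells.

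The title of the only WT tissue array gives its genotype incompletely (+/), while its description calls it WT, and every tissue difference rests on it. The targeted genes followed the genotypes as described. Dlx1 had a deposited signal of 2.80 and 0.921 in mutant tissue against 3278 in WT tissue, and 1.26 in mutant culture against 603 in WT culture. Dlx2 had a signal of 18.7 and 11.7 in mutant tissue against 1069 in WT tissue, and 21.7 in mutant culture against 331 in WT culture. Lhx6, a transcription factor of MGE-derived interneurons, was at 9.80 and 9.87 in mutant tissue against 10.38 in WT tissue, and 8.58 in mutant culture against 9.81 in WT culture. Nkx2-1, which defines the MGE, was at 5.90 and 6.23 in mutant tissue against 5.36 in WT tissue, but below the intensity filter (4.79) in both cultures, at 3.63 in mutant and 4.09 in WT culture. All 10 neuronal markers were measured above the filter in their mean. The cultures also held a very bright signal for the smooth muscle and pericyte gene Acta2, at 13.76 in both, against 6.40 and 6.50 in mutant tissue and 6.16 in WT tissue.

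Promoter sequence is shown for 4 genes on which the results turn: Cacng7, which among the 48 tested genes had the largest interaction, Kcnk1 and Kcnj8, with the highest and lowest fitted culture minus tissue difference among them, and Scn2a, whose window held the most homeodomain cores among the genes past a threshold. Each window runs from 250 bases before to 50 bases after a start annotated by RefSeq (build GRCm38.p6) and is written along the gene's strand. Capitals mark the core TAATT, or AATTA where it lies on the other strand, which many homeodomain proteins contact.
Cacng7, chr7:3332575-3332874, plus strand: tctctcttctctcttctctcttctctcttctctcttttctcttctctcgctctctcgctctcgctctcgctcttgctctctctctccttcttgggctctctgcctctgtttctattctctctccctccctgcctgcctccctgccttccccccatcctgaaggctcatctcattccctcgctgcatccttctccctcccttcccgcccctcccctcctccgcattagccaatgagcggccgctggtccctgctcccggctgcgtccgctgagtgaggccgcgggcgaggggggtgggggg
Kcnk1, chr8:125994852-125995151, plus strand: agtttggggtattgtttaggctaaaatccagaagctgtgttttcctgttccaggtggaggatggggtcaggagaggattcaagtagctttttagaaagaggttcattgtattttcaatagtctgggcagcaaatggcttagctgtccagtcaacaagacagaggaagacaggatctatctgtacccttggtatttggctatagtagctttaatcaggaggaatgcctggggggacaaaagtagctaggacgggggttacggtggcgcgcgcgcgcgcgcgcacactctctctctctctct
Kcnj8, chr6:142571565-142571864, minus strand: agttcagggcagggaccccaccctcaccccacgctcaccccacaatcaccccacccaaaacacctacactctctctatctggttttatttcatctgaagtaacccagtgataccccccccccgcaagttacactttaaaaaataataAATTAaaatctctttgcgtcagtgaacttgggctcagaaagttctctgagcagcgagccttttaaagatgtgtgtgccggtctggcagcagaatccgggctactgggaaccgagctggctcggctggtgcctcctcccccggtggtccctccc
Scn2a, chr2:65620519-65620818, plus strand: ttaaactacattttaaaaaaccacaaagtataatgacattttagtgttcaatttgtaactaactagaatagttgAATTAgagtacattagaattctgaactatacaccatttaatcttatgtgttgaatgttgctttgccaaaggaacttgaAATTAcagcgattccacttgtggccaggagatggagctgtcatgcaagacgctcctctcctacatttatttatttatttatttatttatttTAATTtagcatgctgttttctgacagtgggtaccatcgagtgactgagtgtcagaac
The Scn2a window held 3 cores and was AT-rich (33.0% G or C), the Kcnj8 window held 1 (53.3% G or C), and those of Cacng7 (62.0%) and Kcnk1 (49.0%) held none. Of the 113 genes, 86 had a window, 116 windows in all. The core stood in 22 of the 116 (18.97%), against 27.03% of all 32851 windows, and the median share of G or C was 57.7% in the channel gene windows against 52.7% in all. Among the 18 channel genes past the threshold in any test below, 13 had a window and 4 of them held the core. These matches describe letters in a window and are not binding sites.

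The channel gene probe sets gave low signals on these arrays. The 48 tested genes had a median level of 5.64, against 7.56 for all genes tested. The sodium channel beta subunit gene Scn3b was at 8.67 and 8.44 in mutant tissue, against 7.70 in WT tissue, and the pore gene Scn3a, prominent in embryonic brain, was at 7.30 and 7.32 in mutant tissue, against 7.07 in WT tissue. Kcnj11, the pore of ATP-sensitive potassium channels, was at 8.89 and 8.88 in mutant tissue, against 9.55 in WT tissue. Both mutant arrays lay above the WT array for Scn3b and Scn3a and below it for Kcnj11. The difference between the mutant tissue arrays had an SD of 0.403 over the 48 genes, against 0.324 over all genes tested, and was largest for the L-type calcium pore gene Cacna1d (5.59 and 4.04). Of the 65 dim genes, 26 passed the filter level on at least 1 array and 5 sat at the floor of the scale (2.36) on every array: Cacna1s, Kcne3, Kcnj2, Kcns1 and Scn4b.

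Across tissue and culture together, no channel gene passed the threshold for genotype in the limma fit, against 1.07% of all genes tested. At an unadjusted p below 0.05 there were 11 of the 48 (22.9%), against 13.0% of all genes (1442). In mutants, 35 of 48 differences lay above 0 (72.9%, against 49.8% of all genes), and their median was 0.22, against 0.00 for all genes. With no intensity filter the median over all 113 channel genes was 0.11. Without the first or the second mutant tissue array, 34 of 49 or 30 of 46 lay above 0. Nearest to the threshold was Scn3b, a sodium channel beta subunit that modulates gating (0.69 ± 0.15, adjusted p = 0.092). Counted array by array, 18 of 48 channel genes (37.5%) exceeded the WT level of their preparation on all 3 mutant arrays, against 22.89% of all genes tested, and 6 of 48 (12.5%) were lower in all 3, against 20.64%.

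The 18 genes higher in each mutant array were of many kinds. They included Scn3b, Scn2b and Scn3a, the calcium pore genes Cacna1c (L-type) and Cacna1h (T-type), and the auxiliary genes Cacna2d3 and Cacnb2. Potassium channel genes among them were Kcnk1, Kcnk2 and Kcnk10, Kcnj10, Kcna5, Kcna6, Kcnv1, Kcnn2, Kcnmb4, Kcne1l and the noncoding Kcnmb4os2. The 6 lower in each mutant array were Kcnc2, Kcnj3, Kcnj11, Hcn3, Cacnb4 and Cacng5. Kcnc2, a Kv3 pore gene of fast-spiking neurons, was at 4.97 and 4.62 in mutant tissue against 5.68 in WT tissue, and at 5.30 in mutant culture against 6.004 in WT culture (−0.81 ± 0.31, adjusted p = 0.33). Kcnj3, a pore of G-protein-gated inward rectifiers, was at 4.81 and 4.47 in mutant tissue against 5.45 in WT tissue, and at 4.79 in mutant culture against 5.22 in WT culture (−0.64 ± 0.37, adjusted p = 0.49). Kcnmb4, the neuronal beta subunit of BK calcium-activated potassium channels, was at 8.16 and 8.10 in mutant tissue against 7.76 in WT tissue, and at 8.48 in mutant culture against 7.76 in WT culture (0.52 ± 0.15, adjusted p = 0.18).

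**Figure D1:**
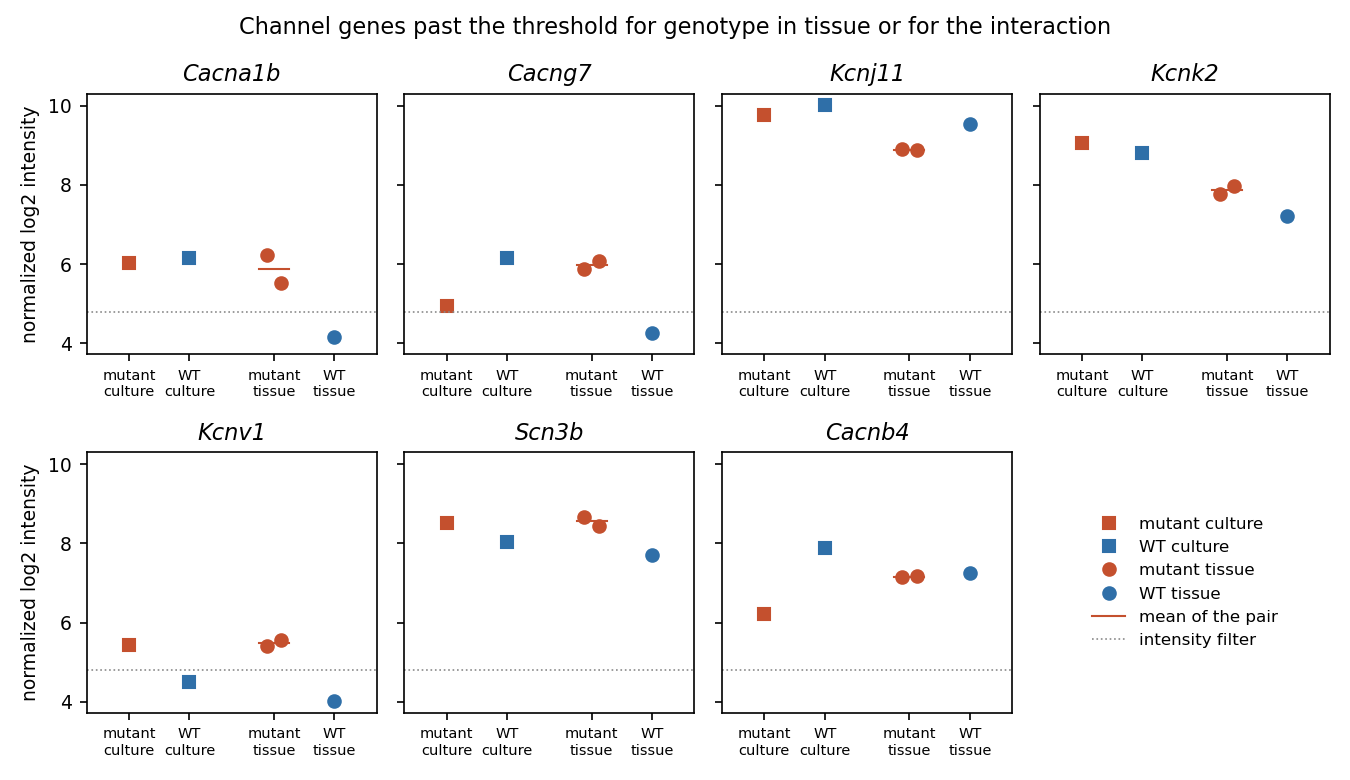
Normalized log2 intensity of channel genes on each of the 5 arrays, 1 panel per gene, with 1 point per array, culture on the left and tissue on the right, and mutant left of WT in each; the short line is the mean of the mutant tissue pair and the dotted line the intensity filter. In tissue, both mutant points of Scn3b, Kcnk2, Cacna1b, Cacng7 and Kcnv1 lie above the WT point and those of Kcnj11 below it.

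In tissue alone, 6 of the 48 channel genes passed the threshold (12.5%), against 15.3% of all genes tested, so their share was near the background. The mutant tissue arrays had higher levels of 5 and a lower level of 1. Differences above 0 were seen for 36 of the 48 (75%, against 50.1% of all genes), with a median of 0.39 against 0.00. With no intensity filter the median over all 113 channel genes was 0.14. Without the first or the second mutant tissue array, 36 of 49 or 30 of 46 lay above 0.

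All 5 sodium channel genes that were tested had a positive difference in tissue, 1 of them past the threshold, although without the second mutant array 4 of 5 did. Scn3b rose by 0.86 ± 0.15 (1.81-fold, adjusted p = 0.0020), and its second probe set, at 5.80 and 5.62 in mutant tissue against 3.31 in WT tissue, was higher by 2.41. Scn2b, another beta subunit, was at 6.02 and 6.41 in mutant tissue against 5.22 in WT tissue (0.99 ± 0.31, adjusted p = 0.052). Scn2a, the sodium channel pore of the immature axon initial segment, was at 6.26 and 5.94 in mutant tissue against 5.10 in WT tissue (1.002 ± 0.32, adjusted p = 0.055). For these 3 genes both mutant arrays stood above the WT array with the brightest probe set. The second Scn2b probe set above the filter was at 5.90 and 5.44 in mutant tissue against 5.62 in WT tissue, a difference of 0.05. Scn3a (0.24 ± 0.18, adjusted p = 0.42) and Scn8a, the pore of mature nodes (0.17 ± 0.36, adjusted p = 0.80), were not past the threshold.

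Among calcium channel genes, Cacna1b and Cacng7 rose. Cacna1b, the pore of N-type channels that trigger transmitter release, was at 6.22 and 5.51 in mutant tissue against 4.16 in WT tissue (1.71 ± 0.42, 3.27-fold, adjusted p = 0.016). Its 3 probe sets above the filter were all higher in mutant tissue, by 1.16 to 2.19. All 3 lay below the filter in WT tissue and passed it through other arrays, so their agreement adds no support. A dimmer Cacna1b probe set was at the floor on every tissue array. Cacng7 encodes a protein of the group that escorts AMPA receptors. It was at 5.88 and 6.07 in mutant tissue against 4.25 in WT tissue (1.73 ± 0.36, 3.31-fold, adjusted p = 0.0071), while its dimmer probe set differed by 0.10. Both mutant arrays again exceeded the WT array. Other auxiliary genes were higher without passing the threshold: Cacnb2 by 1.11 ± 0.45 (adjusted p = 0.12), Cacnb1 by 0.88 ± 0.35 (adjusted p = 0.11), Cacng2 (stargazin) by 0.88 ± 0.32 (adjusted p = 0.092) and Cacna2d3 by 0.90 ± 0.31 (adjusted p = 0.069).

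The potassium channel genes past the threshold in tissue were Kcnv1, Kcnk2 and Kcnj11. Kcnv1 encodes a silent subunit that forms no channel alone and modifies Kv2 channels. It was at 5.40 and 5.56 in mutant tissue against 4.02 in WT tissue (1.46 ± 0.43, 2.74-fold, adjusted p = 0.040), and its dimmer probe sets were higher too, 1 by at least 3.11, since WT tissue was at the floor, and the other by 1.94. Kcnk2, a leak channel opened by stretch and lipids, was at 7.78 and 7.98 in mutant tissue against 7.22 in WT tissue (0.66 ± 0.17, 1.57-fold, adjusted p = 0.021). Kcnj11 fell by 0.66 ± 0.11 (adjusted p = 0.0017). The direction of Kcnj11 depends on the probe set: a dim one was at 3.63 and 3.98 in mutant tissue against 2.73 in WT tissue, and with the mean of its probe sets the difference was 0.21. Kv3 genes were not past the threshold: Kcnc1 was lower by its brightest probe set (6.02 and 5.99 in mutant tissue against 6.48 in WT tissue), but its 3 other probe sets above the filter were higher, by 0.13 to 0.94.

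Markers moved with genotype in tissue as well. Of 10 neuronal markers, 6 rose and 1 fell in mutant tissue, and their summed signal was 17958 and 17616 in mutant tissue against 14872 in WT tissue. Rbfox3, a marker of maturing neurons, was at 8.57 and 8.46 in mutant tissue against 6.40 in WT tissue. Of 6 excitatory neuron genes 2 were tested and 1 rose, and their summed signal was 254 and 275 in mutant tissue against 77.8 in WT tissue, with Neurod6 and Slc17a6 at the floor in WT tissue, while Tbr1, also untested, was at 3.27 and 2.36 in mutant tissue against 4.77 in WT tissue. Of 8 progenitor markers tested, 3 rose and 2 fell in mutant tissue. Nes rose by 3.38 and the proliferation genes Mki67 and Top2a had differences of −0.82 and −0.75, and the list's summed signal was 27494 and 25627 in mutant tissue against 27735 in WT tissue. Astrocyte markers (4 of 7 tested rose; summed signal 3962 and 3824 in mutant tissue against 2391 in WT tissue) and oligodendrocyte lineage markers (5 of 6 tested rose; 3027 and 3024 against 1654) were higher too. No astrocyte or oligodendrocyte marker tested fell. Of 3 GABA neuron genes, 2 fell in mutant tissue, and the summed signal was 956 and 946 in mutant tissue against 1805 in WT tissue. The part of these cell types in the channel gene differences was not tested.

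For Cacna1b, Cacng7 and Kcnv1 the WT tissue level lay below the filter (4.79), as did WT culture for Kcnv1, so they entered the test through their brighter arrays and their folds are approximate. The tissue result rests on 1 WT array and 1 residual degree of freedom, and all 6 calls were lost when the variance prior had no intensity trend (adjusted p between 0.098 and 0.16) and when dim genes were added to the test (adjusted p between 0.090 and 0.38).

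In culture there was 1 array per genotype and hence no test. Among the 48 genes, 3 differed by at least 2-fold (6.25%), against 3.68% of all genes tested, and all 3 were lower in mutant culture. Cacnb4, a beta subunit that carries calcium channels to the membrane, was at 6.22 in mutant culture against 7.87 in WT culture. Cacng5, of the same gene family as Cacng7, was at 4.02 in mutant culture against 5.60 in WT culture. Cacng7 itself was at 4.95 in mutant culture against 6.17 in WT culture. Dimmer probe sets of these genes did not reach 2-fold, at −0.53 and −0.37 for Cacnb4, −0.13 for Cacng5 and 0.18 for Cacng7. Of the 48 differences, 24 lay above 0 (50%, against 51.7% of all genes), with a median of −0.03. Of the 6 genes past the threshold in tissue, 4 had a culture difference of the same sign (Scn3b 0.48, Kcnk2 0.24, Kcnv1 0.95 and Kcnj11 −0.25), while Cacna1b (−0.12) and Cacng7 (−1.22) did not.

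**Figure D2:**
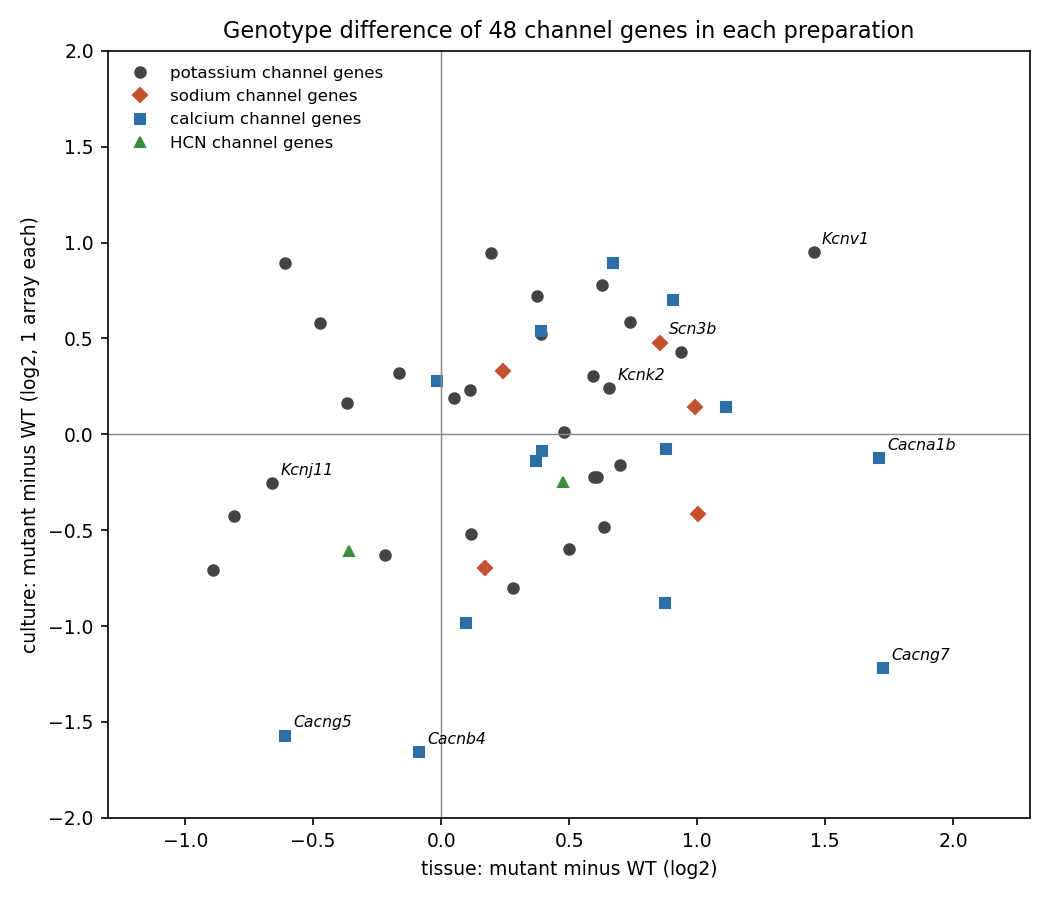
Mutant minus WT difference (log2) of the 48 tested channel genes in tissue (horizontal axis, 2 mutant arrays and 1 WT array) and in culture (vertical axis, 1 array each), 1 point per gene, with shape and colour giving the channel class. Cacng7 lies far to the right and below 0, and Cacnb4 near 0 in tissue and at −1.66 in culture.

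Whether the genotype difference itself changed between culture and tissue was tested as an interaction, and 2 of the 48 channel genes passed (4.17%), against 4.5% of all genes tested. Both had a lower mutant minus WT difference in culture. For Cacng7 the gap was −2.94 ± 0.54 (adjusted p = 0.017): mutant culture stood below WT culture, and mutant tissue above WT tissue. For Cacnb4 the gap was −1.57 ± 0.29 (adjusted p = 0.017). Its levels were 7.15 and 7.16 in mutant tissue against 7.24 in WT tissue, with mutant culture 0.94 below mutant tissue and WT culture 0.63 above WT tissue, so both culture arrays lay outside the tissue range. The other Cacnb4 probe sets shared the sign with smaller gaps (−0.42 and −0.51), whereas the dim probe set of Cacng7 gave 0.08. Among all 48 genes, 17 interactions lay above 0 (35.4%, against 49.8% of all genes) and the median was −0.44. All 4 tested Cacng genes had a negative interaction, from −2.94 to −0.48. The neuronal markers moved with it: 6 of 10 had an interaction past the threshold, all negative, and their summed signal was 14174 in mutant culture against 14850 in WT culture. Of 8 progenitor markers tested, 3 passed with a positive interaction (Hes5, Mki67 and Top2a) and 1 with a negative one (Nes), and of 6 oligodendrocyte lineage markers 1 and 3 did. The part of these cells in the channel gene values was not tested. Neither interaction was past the threshold without the intensity trend, with no intensity filter or with the mean of a gene's probe sets.

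Between culture and tissue, 13 of the 48 channel genes passed the threshold (27.1%), against 38.8% of all genes tested, with 6 higher and 7 lower in culture. In all 13, both culture arrays lay outside the range of the 3 tissue arrays, and mutants and WT moved the same way. The 13 were picked by this difference on the same arrays, so their separation adds no support.

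Leak and glial potassium channels were among the rises. Kcnk1, a weakly conducting tandem-pore channel, was at 8.89 in mutant culture and 8.12 in WT culture, against 5.64 and 5.38 in mutant tissue and 4.88 in WT tissue. It rose by 3.32 ± 0.20 (9.96-fold, adjusted p = 2.4e-05), and its second probe set by 2.53. Kcnj10, the inward rectifier with which glia buffer extracellular potassium, was at 9.10 in mutant culture and 8.58 in WT culture, against 7.20 and 7.12 in mutant tissue and 6.77 in WT tissue (1.88 ± 0.14, adjusted p = 6.4e-05). Kcnk2 was at 9.05 in mutant culture and 8.81 in WT culture, above all tissue arrays (1.35 ± 0.16, adjusted p = 0.00044). Kcnj11 rose by 0.69 ± 0.13 (adjusted p = 0.0037), a call lost with the mean of its probe sets (0.12).

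Astrocyte markers gave a mixed picture beside these rises. Of 7 tested, 3 rose in culture (Slc1a3, Aldh1l1 and Aqp4) and 2 fell (Glul and Aldoc), and their summed signal was 3983 in mutant culture and 2449 in WT culture, against 3962 and 3824 in mutant tissue and 2391 in WT tissue. Gfap and S100b were below the filter in their means. The part of astrocytes in the Kcnk1 and Kcnj10 values was not tested.

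The other rises in culture were of a sodium pore and a calcium auxiliary gene. Scn2a was at 6.89 in mutant culture and 7.31 in WT culture, against 6.26 and 5.94 in mutant tissue and 5.10 in WT tissue (1.39 ± 0.33, adjusted p = 0.012). Cacna2d3, an alpha-2-delta subunit that promotes delivery of calcium channels to the membrane, was at 7.23 in mutant culture and 6.53 in WT culture, against 6.03 and 6.23 in mutant tissue and 5.23 in WT tissue (1.18 ± 0.22, adjusted p = 0.0040). Both were higher in culture than in every tissue array. All 5 tested sodium channel genes lay above 0 in culture minus tissue, 1 of them past the threshold. Above 0 lay 30 of all 48 channel genes (62.5%) and 50.1% of all genes tested.

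A deep fall was that of Kcnj8, the pore of the vascular ATP-sensitive potassium channel. It was at 3.30 in mutant culture and 3.14 in WT culture, against 6.66 and 6.85 in mutant tissue and 7.12 in WT tissue (−3.68 ± 0.31, adjusted p = 0.00010). Its partner subunit gene Abcc9 sat at the floor in both cultures, against 7.13 and 6.89 in mutant tissue and 7.43 in WT tissue. Pericyte markers did not move as a block: of 5 tested, Abcc9 and Rgs5 fell and Acta2 rose, so that their summed signal was 14548 in mutant culture and 13976 in WT culture, against 1054 and 1104 in mutant tissue and 1112 in WT tissue, with Anpep at the floor on every array. The endothelial markers had a summed signal of 216 in mutant culture and 165 in WT culture, against 827 and 925 in mutant tissue and 984 in WT tissue, and 2 of 4 tested fell. Pecam1 and Tie1 were at the floor in both cultures. Red blood cell genes had a summed signal of 18.3 in mutant culture and 19.3 in WT culture, against 9642 and 8558 in mutant tissue and 11711 in WT tissue, and all 4 tested fell. Microglial genes had 128 in mutant culture and 171 in WT culture, against 505 and 520 in mutant tissue and 445 in WT tissue, and 2 of 3 tested fell. The part of these cell types in the Kcnj8 fall was not tested.

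Among 4 tested Kcnn, Kcnt and Kcnu genes 2 fell past the threshold, as did 2 of 4 EAG, ERG and ELK genes. The 1 tested KCNQ gene fell too. Of all genes tested, 38.8% passed in either direction. Kcnh8, of the ELK group, was at 4.15 in mutant culture and 4.37 in WT culture, against 6.30 and 6.51 in mutant tissue and 5.79 in WT tissue (−1.90 ± 0.33, adjusted p = 0.0030). Kcnn1, an SK channel that shapes the afterhyperpolarization, was at 4.77 in mutant culture and 4.45 in WT culture, against 5.98 and 6.28 in mutant tissue and 6.29 in WT tissue (−1.57 ± 0.29, adjusted p = 0.0045). Its second probe set had a fitted fall of 2.81, which is approximate, with mutant culture at 3.82 and WT culture at the floor. Smaller falls came from Kcnh2 (ERG, −1.001 ± 0.30, adjusted p = 0.031), Kcnn2 (SK, −0.998 ± 0.30, adjusted p = 0.032) and Kcnq3, an M-current pore (−0.82 ± 0.28, adjusted p = 0.046). Kcnj8, Kcnh8 and Kcnn1 lay below the filter in both cultures and entered the test through tissue, so the sizes of their falls are approximate. Calls on Kcnh2, Kcnn2 and Kcnq3 were lost without either mutant tissue array. Kcnk10, a stretch-sensitive leak channel, fell by 0.94 ± 0.18 (adjusted p = 0.0048), although its second probe set above the filter differed by 0.21 the other way.

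**Figure D3:**
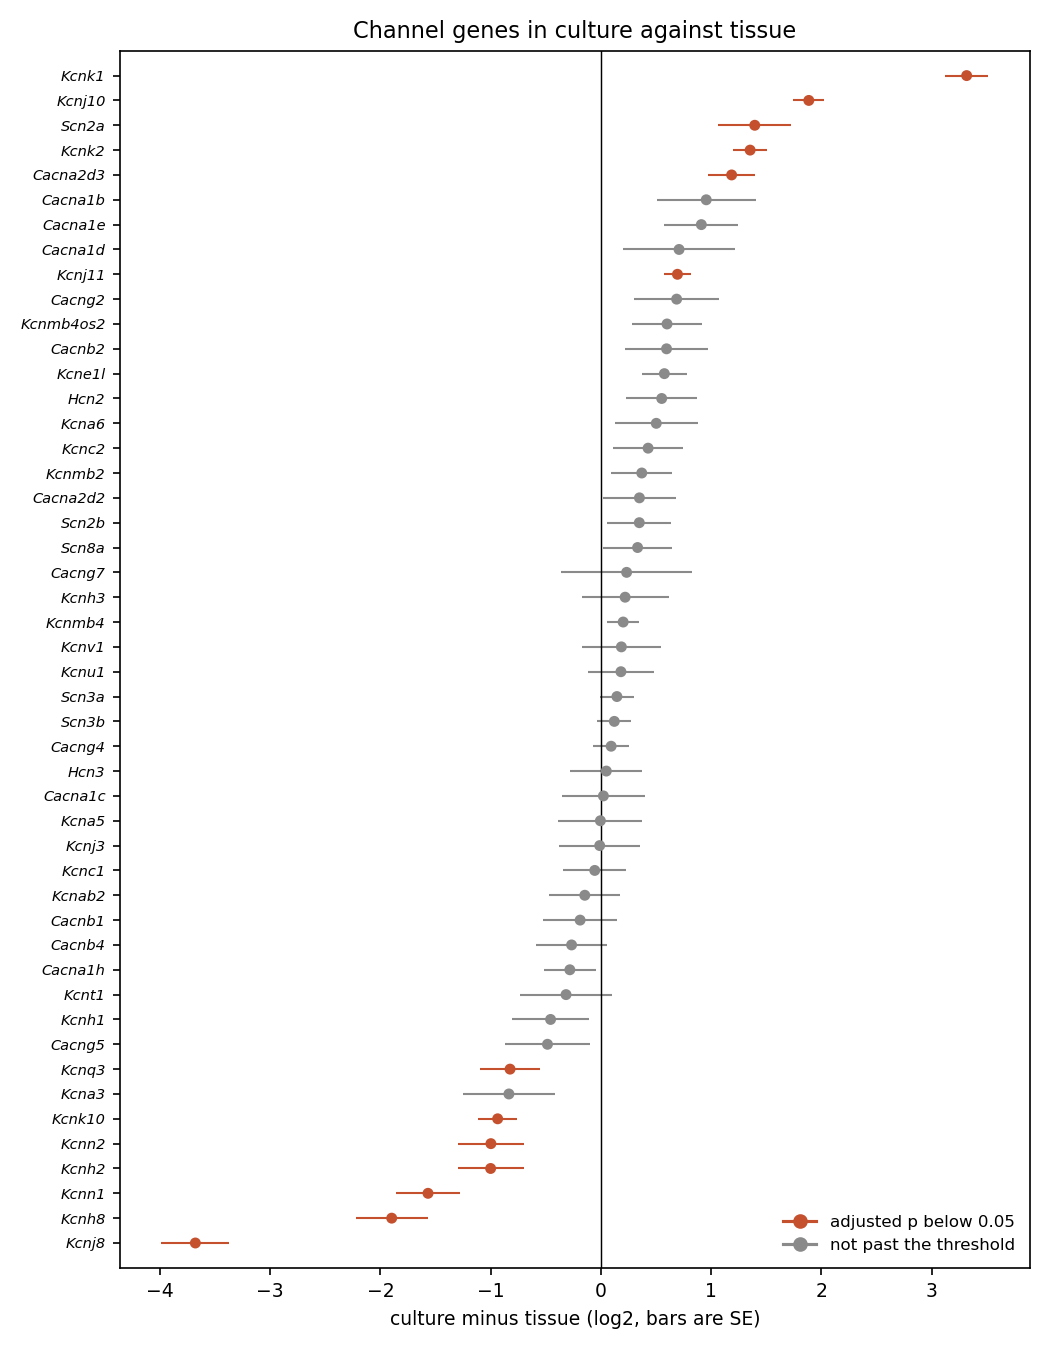
Culture minus tissue difference (log2, limma estimate over 5 arrays) of the tested channel genes, with bars of 1 SE. Kcnk1 (3.32) and Kcnj10 (1.88) lie farthest to the right and Kcnj8 (−3.68) farthest to the left.

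Of the 65 channel genes below the filter, 6 passed the threshold for culture minus tissue when all 18193 genes were tested with no filter. Of all 113 channel genes, bright and dim, 12 passed in that test, against 10.4% of the 18193 genes, so the shares were similar. The 10.4% takes in bright genes and is no background for the 65 dim genes alone. The 6 dim genes were singled out after their values were seen. In culture 5 were higher. Kcnab1, a cytoplasmic beta subunit of Kv1 channels, was at 6.42 in mutant culture and 6.46 in WT culture, against 2.82 and 2.36 in mutant tissue and 2.68 in WT tissue (fitted difference 3.81, adjusted p = 0.025). Kcns3, a silent subunit of Kv2 channels, was at 5.42 in mutant culture and 6.14 in WT culture and at the floor on all 3 tissue arrays. With this probe set it was at least 10.7-fold higher in culture (adjusted p = 0.026). Kcnh5, an EAG channel, was at least 4.95-fold higher (4.97 in mutant culture and 4.37 in WT culture, adjusted p = 0.029), and Kcnj16, which pairs with Kcnj10 in glia, at least 4.0-fold (4.09 in mutant culture and 4.64 in WT culture, adjusted p = 0.030). Both were at the floor in tissue with these probe sets. Kcnq5, a pore of the M-current, was at 5.05 in mutant culture and 4.87 in WT culture, against 2.996 and 2.36 in mutant tissue and 2.36 in WT tissue (fitted difference 2.43, adjusted p = 0.038). With tissue values at or near the floor, the fitted sizes for Kcnab1 and Kcnq5 are not exact. The floor also removed spread between tissue arrays, fully so for Kcns3, Kcnh5 and Kcnj16. The adjusted p-values of these 5 genes may therefore be too small. Dimmer probe sets differed less between culture and tissue, by 1.21 for Kcnab1, 0.27 for Kcns3 and 0.07 for Kcnj16. Those of Kcnq5 differed by 0.69 and −0.15. The fall was that of the inward rectifier Kcnj4, at 2.57 in mutant culture and 2.93 in WT culture, against 4.97 in both mutant tissue arrays and 4.82 in WT tissue (−2.18 ± 0.24, adjusted p = 0.037).

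**Figure D4:**
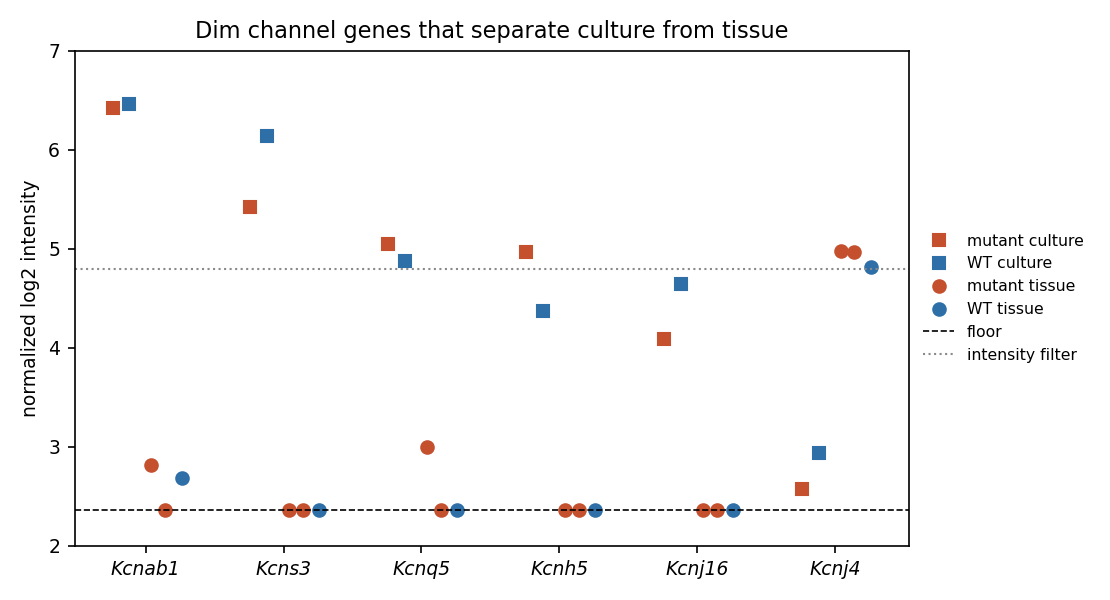
Normalized log2 intensity on each array of the 6 channel genes below the intensity filter that passed the threshold for culture minus tissue when all genes were tested. The 5 genes higher in culture sit at or near the floor (2.36) in tissue, and Kcnj4 is at 2.57 and 2.93 in culture and from 4.82 to 4.97 in tissue.

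Genotype differences among the dim genes are levels without a test here. Kcnma1, the pore of BK channels, was at 4.16 and 4.14 in mutant tissue against 5.44 in WT tissue, and at 4.26 in mutant culture against 5.19 in WT culture, so all 3 mutant arrays were the lower with this probe set. Other Kcnma1 probe sets, dim as well, went other ways: the next brightest was at 5.54 in mutant culture against 4.88 in WT culture, and another was higher in mutant tissue by 1.67. Cacna1g, a T-type calcium pore, was at 5.10 in mutant culture and at the floor in WT culture, at least 6.66-fold higher, while its tissue values were 2.62 and 2.36 in mutants against 3.02 in WT. Kcne4, an auxiliary subunit, was at the floor in mutant culture and at 4.97 in WT culture, at least 6.09-fold lower in the mutant. Kcnk13 (5.67 in mutant culture against 4.64 in WT culture) and Cacng8 (4.98 in mutant culture against 3.80 in WT culture) were at least 2-fold higher in mutant culture. Each of these culture values is a single array. With its brightest probe set Scn1a, the main sodium pore of adult fast-spiking interneurons, reached 4.81 at most, in mutant culture. The axonal Kv1 gene Kcna1 reached 4.50 at most with its brightest probe set, in a mutant tissue array. Dimmer probe sets reached higher on single arrays, at 5.44 in WT tissue for Scn1a and at 5.30 in mutant culture for Kcna1.

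Channel partners, which are no members, were followed as a list of 40, of which 25 were tested. Across both preparations 1 rose and 1 fell (Kcnd2 and Kcns2), against 1.07% of all genes tested past the threshold in either direction. In tissue 6 of the 25 rose and 2 fell, against 15.3% of all genes tested. In culture minus tissue 5 of the 25 rose and 4 fell, against 38.8%. Ank3, the scaffold that anchors sodium channels at the axon initial segment, was at 8.76 and 8.83 in mutant tissue against 7.01 in WT tissue, and at 8.93 in mutant culture against 8.33 in WT culture (tissue difference 1.78 ± 0.14). Nfasc, a membrane protein of the same site, was at 6.26 and 6.23 in mutant tissue against 5.40 in WT tissue (0.84 ± 0.29, adjusted p = 0.070). The sodium channel partner Fgf13 was at 10.93 and 10.94 in mutant tissue against 10.52 in WT tissue (0.41 ± 0.08, adjusted p = 0.0048). In the interaction 4 of the 25 partners passed, against 4.5% of all genes tested, all with a lower genotype difference in culture. They were Kcnd2, Dpp10, Ank3 (−1.18 ± 0.20, adjusted p = 0.012) and Fgf13, which was at 10.78 in mutant culture against 11.03 in WT culture (−0.67 ± 0.12, adjusted p = 0.015).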

How the data were processed

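Per the labels, total RNA of 5 samples was hybridised to mouse expression arrays. The authors deposited linear intensity values for 45101 probe sets. As the values show, every array had been scaled to a mean of 150.0 over the probe sets left when 2% are trimmed off either end. The software is not given in the sources read. Array medians differed by 0.183 (log2), above the limit of 0.1, so arrays were quantile normalized. Signals under the pooled 20th percentile (5.14) were raised to it, and log2 was taken. Of the probe sets, 34945 had 1 gene symbol in the platform annotation, 932 several and 9160 none, beside 64 controls, and 34741 of the first matched RefSeq. The brightest of a gene's probe sets stood for it, and genes whose mean passed the pooled median (4.79, a signal of 27.8) were tested.

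The limma package (3.58.1, under R 4.3.3) fitted 3 models with an intensity-dependent variance prior, and its use was checked on simulated data. Preparation and genotype were fitted to the 5 arrays together, with 2 residual degrees of freedom and 5.95 from the prior. Genotype was fitted to the 3 tissue arrays (1 and 10.96), and the interaction to the 4 groups (1 and 8.60). In these last fits the spread of unreplicated groups was taken from the mutant tissue pair. The number of arrays limits the precision. The named genes were those past a threshold (at most 15 per direction), those at least 2-fold apart in culture (at most 10 per direction), those whose probe sets disagree, and a list of central channel genes, some of which are not reported here. The members, lists and tests were chosen with earlier results of these data known. Alternatives were the deposited scaling, a floor at the 10th percentile, no filter, the mean of a gene's probe sets, no intensity trend, and leaving out each mutant tissue array.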

Additional observations from a re-analysis of the deposited data

Results flagged for a closer look

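The genotype difference of 2 channel genes differed between preparations by the interaction test. For Cacng7 the mutant minus WT difference was −1.22 in culture and 1.73 in tissue, a gap of −2.94 ± 0.54 (limma adjusted p = 0.017), and for Cacnb4 it was −1.66 in culture and −0.09 in tissue, a gap of −1.57 ± 0.29 (limma adjusted p = 0.017). Both culture values come from 1 array per genotype. For Cacnb4 mutant culture lay 0.94 below mutant tissue while WT culture lay 0.63 above WT tissue.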

How the results depend on the processing

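Of the 21 gene calls named above, all kept their side of the threshold with the deposited scaling and with the floor at the 10th percentile. The count in tissue, 6 of 48, was 1 with the mean of a gene's probe sets, 1 with no intensity filter (Cacng1, which is not among the 6) and 0 with no intensity trend, where 2 of all genes passed. The interaction count, 2, was 0 with the mean of probe sets and 0 with no intensity trend, where 0 of all genes passed. The count of genes at least 2-fold apart in culture, 3, was 1 with the mean of probe sets. With no intensity filter it was 15 of 113, beside 2471 of all 18193 genes, so the shares were similar. The 1 gene was higher in mutant culture and not among the 3, and of the 15, 6 were higher and 9 lower. For culture minus tissue, 13 of 48, leaving out 1 mutant tissue array gave 10 to 11. The Kcnj11 difference in tissue, −0.66, became 0.21 with the mean of probe sets, one of which was dim, and Cacna1b was 2.04 without the second mutant tissue array. With no intensity filter 15 of the 21 calls were lost, and more genes were then tested. Without 1 mutant tissue array the tissue and interaction fits had no residual degrees of freedom and gave values with no test. No paired analysis was possible because only mutant tissue had more than 1 array. Dim probe sets near the floor limit what can be said of 65 of the 113 genes. The cause of the other changes was not tested.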

Other observations

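Probe sets above the filter disagreed in sign in at least 1 tested comparison for 9 of the 13 tested channel genes that had more than 1 such probe set: Cacnb1, Cacnb4, Cacng4, Kcnc1, Kcnh3, Kcnk10, Kcnmb2, Scn2b and Scn8a. For Kcnh3, a potassium channel gene of the ELK group, the brightest probe set was lower in mutant tissue by 0.61 and the other was higher by 0.87. Scn8a differed by 0.17 with its brightest probe set in tissue and by −0.38 with the other. Cacnb1 differed by −0.19 in culture minus tissue with its brightest probe set and by 0.41 with the other. Cacng4 and Kcnmb2 split in culture minus tissue as well, at 0.09 and −0.48 for Cacng4 and at 0.37 and −0.06 for Kcnmb2. Scn2b split in the interaction alone, at −0.85 and 0.31.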
